A study of Mus musculus with 20 samples.

Results

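*Bdh1*, *Oxct1*, *Acat1*, and *Slc16a1* are 4 genes of ketone body metabolism. They were taken by gene symbol from the counts of left ventricular tissue, which list 15956 genes, and all 4 were listed and passed the filter on low counts that left 13991 genes for testing. The deposited counts hold RNA of 20 male mice, 5 in each of 4 diet groups. The legend of the study's transcriptome figure gives more mice per group. The normal protein (NP) diet held 20% casein and the low protein (LP) diet 5% casein. The high-fat (HF) diet held 60% fat with 20% casein, and the HF + LP diet 60% fat with 5% casein. These percentages are those of the study's methods, which do not state whether they are by weight or by energy. By its diet list the NP and LP diets also held fat, at a lower share. By the study's methods the diets were started at 12 months of age and the hearts were taken after 4 months, at 16 months, in the fed state. The age in the sample labels is 18 months. The 4 groups thus shared sex and age and differed in fat and protein content. By the study's diet list they also differed in carbohydrate. Its part in a fat or protein effect cannot be told apart in this design. Each library came from 1 animal, named here by its diet and its animal number. The title of LP 5 also carries a sample number. The NP mice weighed 43.0 ± 7.82 g (mean ± SD, n = 5) and the HF mice 58.9 ± 1.76 g. The LP mice weighed 32.6 ± 2.69 g, and the mice on the diet with both changes weighed 48.6 ± 5.93 g.

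The heart takes up ketone bodies from the blood and burns them in its mitochondria. SLC16A1 (MCT1) is a proton-coupled carrier of the plasma membrane for lactate, pyruvate, and ketone bodies. BDH1 oxidizes β-hydroxybutyrate to acetoacetate, OXCT1 (SCOT) moves coenzyme A from succinyl-CoA to acetoacetate, and ACAT1 splits the acetoacetyl-CoA into acetyl-CoA for the citrate cycle. OXCT1 is the committed step of ketone use and is nearly absent from hepatocytes, which make ketone bodies. Cardiac BDH1 is known to rise in failing hearts.

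All 4 genes are protein coding (GENCODE M21, GRCm38). *Bdh1* lies on chromosome 16 from 31422280 to 31458901, *Oxct1* on chromosome 15 from 4026383 to 4155344, and *Slc16a1* on chromosome 3 from 104638668 to 104658462, all on the plus strand. *Acat1* lies on the minus strand of chromosome 9 from 53580522 to 53610382. The principal transcripts have 7 exons for *Bdh1*, 17 for *Oxct1*, 12 for *Acat1*, and 5 for *Slc16a1*. Transcripts of the opposite strand overlap *Bdh1* and *Oxct1*, and 2 sense intronic genes (Gm43581 and Gm43585) lie within *Slc16a1*, and the strand setting of the counting is not given in the sources used here. No transcript of another gene matched the last 300 bases of a coding transcript of these genes at 90% identity over at least 100 bases.

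RefSeq promoter windows (GRCm38.p6, 250 bases before to 50 after the start) were held for 3 of the 4 genes, 2 of them for *Bdh1*. They are printed for *Bdh1* and *Oxct1*, whose levels moved together from mouse to mouse, and for *Slc16a1* beside them. The windows are chr16:31422047-31422346 and chr16:31428503-31428802 for the first and second starts of *Bdh1*, chr15:4026178-4026477 for *Oxct1*, and chr3:104638414-104638713 for *Slc16a1*, all on the plus strand. Capitals mark the GC box GGGCGG on either strand.

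Bdh1 first start: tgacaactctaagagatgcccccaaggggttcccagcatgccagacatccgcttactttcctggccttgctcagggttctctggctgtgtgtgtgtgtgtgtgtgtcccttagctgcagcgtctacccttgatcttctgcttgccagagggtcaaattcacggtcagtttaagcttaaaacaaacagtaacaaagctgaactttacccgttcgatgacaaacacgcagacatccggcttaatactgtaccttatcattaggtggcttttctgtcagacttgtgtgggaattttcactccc
Bdh1 second start: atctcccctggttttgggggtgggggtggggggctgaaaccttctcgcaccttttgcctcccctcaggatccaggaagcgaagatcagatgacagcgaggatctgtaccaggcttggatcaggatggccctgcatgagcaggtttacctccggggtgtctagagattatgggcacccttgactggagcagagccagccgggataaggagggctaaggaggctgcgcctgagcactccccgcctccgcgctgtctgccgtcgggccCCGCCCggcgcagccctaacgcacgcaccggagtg
Oxct1: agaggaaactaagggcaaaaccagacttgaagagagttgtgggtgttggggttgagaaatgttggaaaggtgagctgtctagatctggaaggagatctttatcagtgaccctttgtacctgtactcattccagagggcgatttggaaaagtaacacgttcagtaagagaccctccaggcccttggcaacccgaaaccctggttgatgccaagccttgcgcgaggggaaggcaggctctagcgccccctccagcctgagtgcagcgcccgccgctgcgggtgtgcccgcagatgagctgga
Slc16a1: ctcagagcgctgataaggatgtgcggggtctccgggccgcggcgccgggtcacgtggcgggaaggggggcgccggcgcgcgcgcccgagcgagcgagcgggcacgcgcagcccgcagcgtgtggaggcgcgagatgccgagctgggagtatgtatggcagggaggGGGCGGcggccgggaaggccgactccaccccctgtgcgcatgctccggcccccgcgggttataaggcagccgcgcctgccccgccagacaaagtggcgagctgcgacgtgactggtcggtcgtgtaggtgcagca

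The windows differed in base composition. The first *Bdh1* window was 48.3% G and C with 7 CpG dinucleotides, the second 63.7% with 17, the *Oxct1* window 55.3% with 11, and the *Slc16a1* window 73.7% with 42. The second *Bdh1* window and the *Slc16a1* window each held 1 GC box, as did 35.7% of 32851 promoter windows of the same length. The nuclear receptor half-site AGGTCA, searched on both strands, was in none of the 4 windows and in 16.3% of all windows. The extended half-site TCAAGGTCA, which contains the half-site, was in 0.423% of all windows and in none of the 4. The direct repeat AGGTCANAGGTCA was in 0.0396% of all windows and in none of the 4.

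Counts were made from the 3′ ends of transcripts, so a count does not grow with gene length. Levels are given as normalized counts, which are counts scaled to the mean effective library size of the 20 mice. Total counts lay between 12559607 and 23331907 per mouse, and the smallest raw count behind any member value was 889. The mean level was 1209 CPM, the counts scaled to library size, for *Oxct1*, 459 CPM for *Acat1*, 146 CPM for *Bdh1*, and 90.6 CPM for *Slc16a1*. By mean count, *Oxct1* ranked 59 among all tested genes, *Acat1* 187, *Bdh1* 601, and *Slc16a1* 1011.

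Some libraries stood apart. LP 13 had a median correlation of 0.908 with the other LP mice, and the next lowest library had 0.944. The 5 atrial markers were at 973 to 259457 summed normalized counts, with none absent from the table. Myl7, the atrial myosin light chain, was above 1000 normalized counts in 10 libraries (NP 4, 5, and 8, LP 13, 15, and 20, HF 1 and 3, HF + LP 3 and 4) and highest at 33675 in LP 13. The summed atrial markers had a median of 20864 in NP and 28089 in LP, and of 3237 in HF and 2466 in HF + LP. The 6 adipocyte markers summed to 23.6 to 821 in NP and 80.0 to 5159 in LP, to 8.80 to 1161 in HF and 12.3 to 191 in HF + LP, and were highest in LP 13. Apoa1 and Apoc3 of the 4 liver markers were not listed, and the other 2 summed to at most 40.4 normalized counts in any mouse. In bulk tissue, fewer cells of a type and less RNA per cell cannot be told apart.

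None of the 4 members was called in any comparison. The term is used for genes with an adjusted p below 0.01 whose normalized count averaged more than 50. Of the tested genes, 0.264% were called in HF against NP, 0.1% in HF + LP against LP, 0.0286% in HF + LP against NP, and 1% for the fat main effect, the mean of the fat effects at both protein levels. For any difference among the 4 diets the share was 0.479%. It was 0% in HF + LP against HF, in LP against NP, for the protein main effect, and for the fat by protein interaction. In those 4 comparisons, 4.84%, 7.23%, 5.47%, and 7.17% of the tested genes had an unadjusted p under 0.05, and DESeq2 called 16, 3, 1, and 0 genes. With so few calls among the tested genes, 0 of 4 is close to the share over all tested genes. Over all 33 alternative settings the count of members called was also 0, by DESeq2 as by edgeR.

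**Figure D1:**
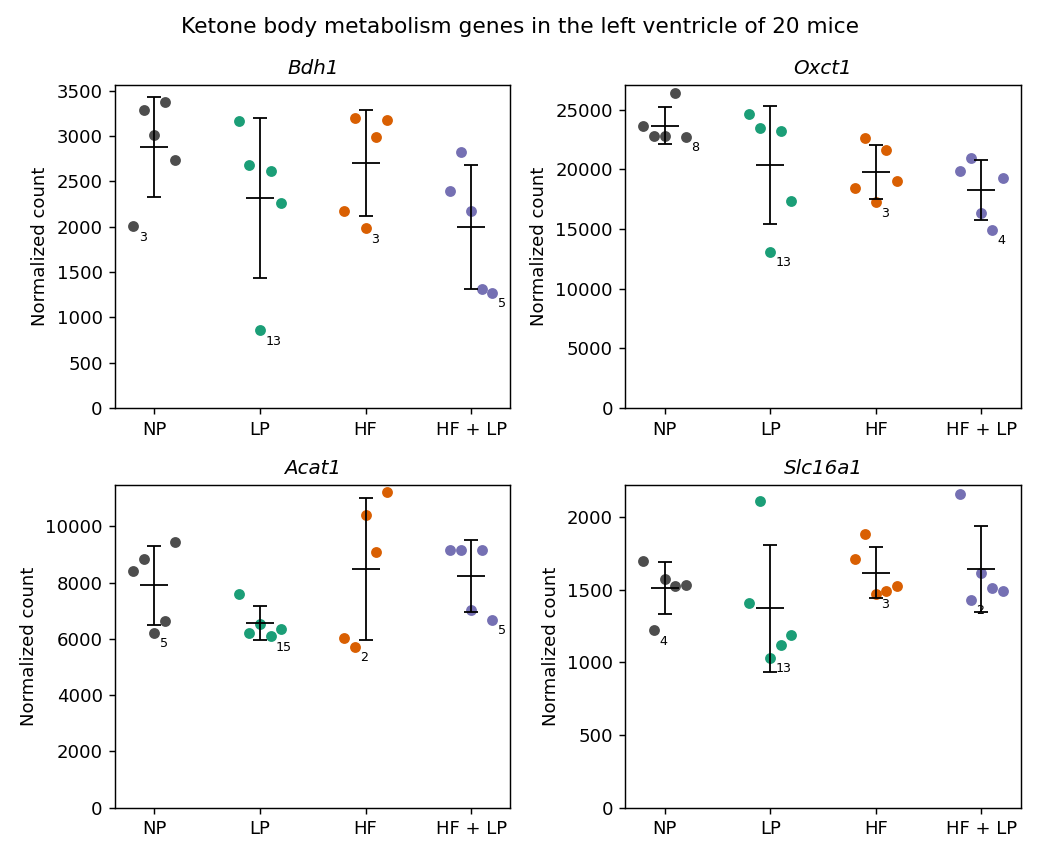
Normalized counts of the 4 members (vertical axes, from 0) in each of the 20 mice by diet (horizontal axes), with the mean and SD of each diet (n = 5) as bars and the animal number beside the lowest mouse of each diet. The 5 NP mice lie above the 5 HF mice and the 5 HF + LP mice for Oxct1, while the diets overlap for Bdh1, Acat1, and Slc16a1.

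*Oxct1* was the member with the smallest p against NP. The NP mice 3, 4, 5, 6, and 8 had 23654, 22764, 22774, 26409, and 22751 normalized counts of *Oxct1*. The HF mice 1 to 5 had 18451, 22618, 17221, 21599, and 18981 counts. The HF + LP mice 1 to 5 had 19877, 20913, 16318, 14929, and 19237 counts. Every HF mouse and every HF + LP mouse was thus below the lowest NP mouse with HF 2 nearest to it. The LP mice 2, 5, 13, 15, and 20 had 24674, 23499.6, 13108, 23243, and 17308 counts, so 3 of them were within the NP range and LP 13 and LP 20 were below all NP mice. Groups that did not overlap in the lower direction were seen for 3.6% of the tested genes in HF against NP and for 1.61% in HF + LP against NP. Of 9 markers of ventricular cardiomyocytes, 9 had negative log2 fold changes in HF against NP (median -0.18) and 9 in LP against NP (median -0.21), with 3 and 0 at an unadjusted p under 0.05, beside 7.91% of the tested genes that were lower at that threshold in HF against NP. Their summed level was 820602 to 968804 in NP, 599155 to 906978 in LP, 665832 to 840946 in HF, and 652901 to 938341 in HF + LP, and in HF + LP against NP 6 of 9 were negative (median -0.09). For the fat main effect 1 of the 9 was called, the cardiac myosin heavy chain *Myh6* at -0.55 (SE 0.09, adjusted p = 0.00252), which is named after its values were seen. Of 6 myeloid markers 4 were higher in HF against NP at an unadjusted p under 0.05 (5.17% of the tested genes), with summed levels of 2669 to 4092 in NP and 3585 to 5311 in HF, and of 5 erythroid markers 4 were higher in HF + LP against NP (3.9% of the tested genes), with 60801 to 178249 in NP and 82070.2 to 313598 in HF + LP. None of these markers was called in these pairwise comparisons or absent from the table, and their part in the *Oxct1* differences was not tested.

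The level of *Oxct1* was 23670.4 ± 1579 (mean ± SD, n = 5) in NP and 20366 ± 4967 in LP, and it was 19774 ± 2254 in HF and 18255 ± 2524 in HF + LP. In HF + LP it was 0.77 times that of NP, a log2 fold change of -0.37 (SE 0.15, 95% interval -0.68 to -0.07) with an unadjusted p of 0.0188 and an adjusted p of 0.435. This was the single member comparison under an unadjusted p of 0.05, and 4.87% of the tested genes were lower at that threshold. The log2 fold change of *Oxct1* was -0.26 (SE 0.15, adjusted p = 0.490) in HF against NP, -0.22 (SE 0.15, adjusted p = 0.826) in LP against NP, and -0.12 (SE 0.15, adjusted p = 0.999) in HF + LP against HF, where it was -0.05 without HF + LP 4 and -0.06 without HF 2. The fat main effect was -0.21 on the log2 scale (95% interval -0.42 to 0.01, adjusted p = 0.257). Without LP 13 it was -0.27 with an adjusted p of 0.077, and the value in LP against NP was -0.09 while that in HF + LP against LP was -0.29 (-0.16 over all mice). With 1 mouse left out in turn, the *Oxct1* value in HF + LP against LP lay between -0.29 and -0.08.

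*Bdh1* had the widest spread of the 4 members. The NP mice 3, 4, 5, 6, and 8 had 2003, 3286, 3013, 3377, and 2741 normalized counts of *Bdh1*. The LP mice 2, 5, 13, 15, and 20 had 3170.3, 2686, 855, 2612, and 2265 counts. LP 13 was lower than any other mouse of the study. The HF mice 1 to 5 had 2170.2, 3194, 1984, 2994, and 3180.4 counts. The HF + LP mice 1 to 5 had 2389.5, 2826, 2170.1, 1317, and 1268 counts. All 4 diets overlapped, and HF + LP 4 and HF + LP 5 were below every NP and HF mouse.

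The level of *Bdh1* was 2884 ± 552 (mean ± SD, n = 5) in NP and 2318 ± 879 in LP, and it was 2705 ± 582 in HF and 1994 ± 683 in HF + LP. The within-diet SD of its log2 CPM was 0.51, larger than that of 90.4% of the genes with a mean count over 50, whose median was 0.25. The corresponding SD was 0.24 for *Oxct1*, 0.29 for *Acat1*, and 0.26 for *Slc16a1*. Against NP, the log2 fold change of *Bdh1* was -0.53 in HF + LP (SE 0.28, 95% interval -1.11 to 0.04, adjusted p = 0.615), -0.32 in LP (SE 0.28, adjusted p = 0.885), and -0.09 in HF (SE 0.28, adjusted p = 0.939). In HF + LP against HF it was -0.44 (SE 0.28, 95% interval -1.02 to 0.14). The protein main effect was -0.38 on the log2 scale (95% interval -0.79 to 0.03, unadjusted p = 0.0671, adjusted p = 0.945). Over the alternative settings this effect lay between -0.46 and -0.21. The 95% intervals are wide, and a change of *Bdh1* by a factor of 0.69, the estimate in HF + LP against NP, was not detectable beyond the spread between mice. In the LP against NP comparison LP 13 decided the size, and without it the log2 fold change of *Bdh1* was -0.11.

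*Acat1* varied most among the HF mice. The NP mice 3, 4, 5, 6, and 8 had 8409, 8828, 6215, 6645, and 9441 normalized counts of *Acat1*. The HF mice 1 to 5 had 6019.8, 5711, 10412, 9069.7, and 11204 counts. HF 1 and HF 2 were thus below the NP range, while HF 3 and HF 5 were above it. The LP mice 2, 5, 13, 15, and 20 had 7589, 6223, 6539, 6084, and 6338 counts. The HF + LP mice 1 to 5 had 9152, 9171, 7035, 9148, and 6675 counts. Of the HF + LP mice, 3 were above all LP mice, and LP 13 was not apart from its group for this gene.

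The level of *Acat1* was 7908 ± 1406 (mean ± SD, n = 5) in NP and 6554 ± 602 in LP, and it was 8483 ± 2511 in HF and 8236 ± 1267 in HF + LP. Its largest difference was between HF + LP and LP, a log2 fold change of 0.33 (SE 0.17, 95% interval -0.03 to 0.69, unadjusted p = 0.0731, adjusted p = 0.362). In LP against NP it was -0.27 (SE 0.17, adjusted p = 0.809), and -0.12 in the 10 libraries with Myl7 under 1000, in HF against NP 0.10 (SE 0.17, adjusted p = 0.881), and in HF + LP against HF -0.04 (SE 0.17, adjusted p = 0.999). The fat main effect on *Acat1* was 0.22 (95% interval -0.04 to 0.47, adjusted p = 0.332).

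*Slc16a1*, the carrier, had the lowest level of the 4 members. The NP mice 3, 4, 5, 6, and 8 had 1701, 1222, 1576, 1526, and 1536 normalized counts of *Slc16a1*. The LP mice 2, 5, 13, 15, and 20 had 1409, 2113, 1033, 1121, and 1193 counts. In LP, 3 mice were thus below all NP mice while LP 5 was above them. The HF mice 1 to 5 had 1715, 1884, 1474, 1494, and 1523 counts. The HF + LP mice 1 to 5 had 2164, 1433, 1618, 1513, and 1492 counts. The diets overlapped, and single mice (LP 5 and HF + LP 1) made up the upper end.

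The level of *Slc16a1* was 1512 ± 177 (mean ± SD, n = 5) in NP and 1374 ± 436 in LP, and it was 1618 ± 177 in HF and 1644 ± 298 in HF + LP. The log2 fold change of *Slc16a1* was 0.26 in HF + LP against LP (SE 0.16, 95% interval -0.08 to 0.60, adjusted p = 0.447) and 0.10 in HF against NP (SE 0.16, 95% interval -0.25 to 0.44). In LP against NP it was -0.14 (SE 0.16, adjusted p = 0.931), and in HF + LP against HF it was 0.02 (SE 0.16, adjusted p = 0.999). All of these small values depended on single mice, and in HF against NP the value was 0.03 without NP 4 and 0.04 without HF 2. Without LP 5 the log2 fold change of *Slc16a1* was 0.47 in HF + LP against LP (unadjusted p = 0.00234, adjusted p = 0.0664) and -0.35 in LP against NP (adjusted p = 0.363). Without HF + LP 1 the former was 0.14, and without LP 13 they were 0.16 and -0.05. The fat by protein interaction, which tests whether the fat effect differs between protein levels, was 0.16 for *Slc16a1*, 0.23 for *Acat1*, 0.10 for *Oxct1*, and -0.12 for *Bdh1* on the log2 scale, with adjusted p-values from 0.892 to 0.965. Leaving out 1 mouse gave interactions of 0.04 (without HF + LP 1) to 0.37 (without LP 5) for *Slc16a1* and of 0.12 to 0.35 for *Acat1*.

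**Figure D2:**
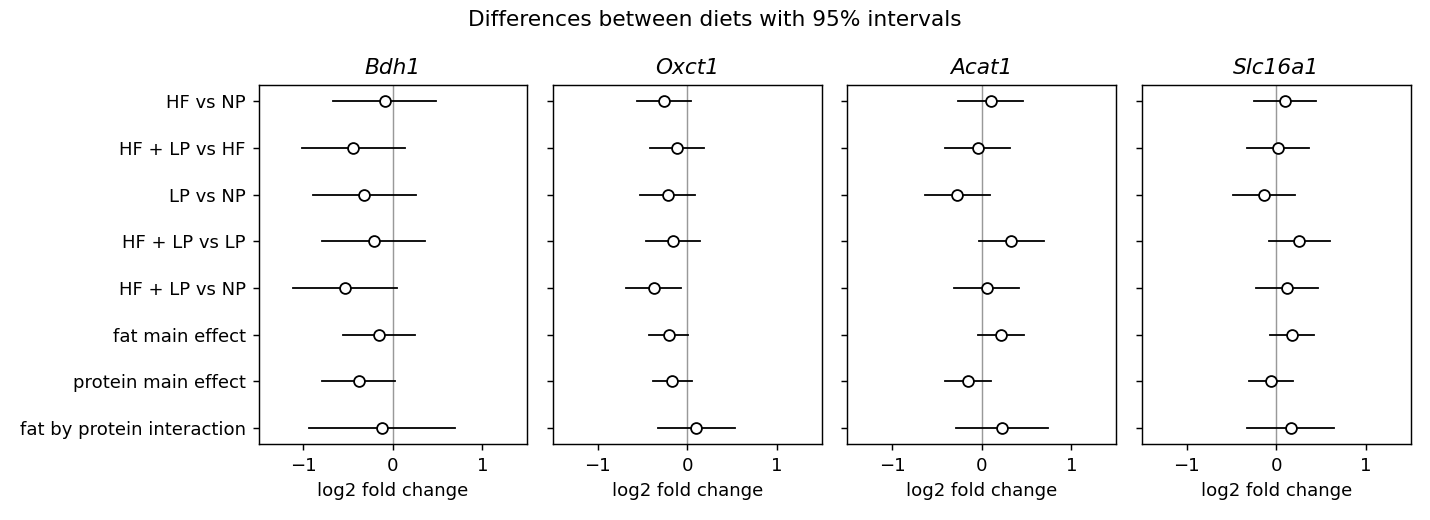
Log2 fold changes (horizontal axes) with 95% intervals of the 4 members in 8 comparisons (vertical axis), from the fit over all 20 mice. The circles are open because no member was called. The intervals include 0 except that of Oxct1 in HF + LP vs NP (-0.68 to -0.07).

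Within diets, *Bdh1* and *Oxct1* moved together from mouse to mouse. Levels were taken as log2 CPM minus the diet mean over the 20 mice, and a relation passed at an adjusted p under 0.05. For this pair Pearson's r was 0.78 (permutation p = 0.00349, adjusted over 6 pairs 0.0209) and Spearman's rho was 0.77 (permutation p = 0.00161, adjusted 0.00966). Without LP 13 and HF + LP 5, the mice farthest from the median of *Bdh1*, r was 0.71. Without LP 13 alone r was 0.56 with an adjusted permutation p of 0.168, and without LP 20 alone it was 0.82 with an adjusted permutation p of 0.0543, so passing the test depended on these mice. With the mean of the number in the library name, a possible batch, also removed, r was 0.77 (adjusted permutation p = 0.0151). For *Oxct1* and *Slc16a1* r was 0.48 (permutation p = 0.161, adjusted 0.465), rho was 0.36 (permutation p = 0.204, adjusted 0.476), and r was 0.30 without LP 13 and HF + LP 4. For *Bdh1* and *Slc16a1* r was 0.34 (permutation p = 0.310) and rho 0.27 (permutation p = 0.317), with r of 0.04 without LP 13 and HF + LP 5. *Acat1* had r between -0.20 and 0.05 and rho between -0.24 and 0.14 with the other members, each with an adjusted permutation p of at least 0.465. The smallest r of *Acat1*, with *Slc16a1*, was -0.12 without HF 3 and HF 5.

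No relation of a member with body weight within diets passed the test. Pearson's r with weight over the 20 mice was -0.39 for *Bdh1* (permutation p = 0.0618), -0.29 for *Oxct1* (p = 0.115), -0.21 for *Slc16a1* (p = 0.342), and 0.11 for *Acat1* (p = 0.615), by permutation within diets, with adjusted p-values over the 4 members from 0.229 to 0.615. Spearman's rho was -0.42, -0.23, -0.16, and 0.02 in the same order, with adjusted permutation p-values from 0.301 to 0.923. Without LP 5 and LP 15, the mice farthest from the median weight, r was -0.36, -0.23, -0.24, and 0.09.

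*Oxct1* was lower where atrial markers were higher. The atrial score was the mean log2 CPM of the 5 atrial markers, and this relation was examined after these levels had been seen. Within diets r with the score was -0.70 for *Oxct1* (permutation p = 0.00521, adjusted over 4 members 0.0208), with rho -0.69 (permutation p = 0.0074, adjusted 0.0296) and r of -0.66 without LP 5 and LP 13. It was -0.57 for *Slc16a1* (permutation p = 0.0285, adjusted 0.0569), -0.49 for *Bdh1* (permutation p = 0.0665, adjusted 0.0887), and -0.14 for *Acat1* (permutation p = 0.578). By rank, rho was -0.49 for *Slc16a1* (adjusted permutation p = 0.0717), -0.55 for *Bdh1* (permutation p = 0.0207, adjusted 0.0414), and -0.19 for *Acat1* (permutation p = 0.466), so *Bdh1* passed by rho and not by r. Without LP 5 and LP 13 these r were -0.29, -0.38, and -0.20. With the library-name number removed as well, r for *Oxct1* was -0.69 with an adjusted permutation p of 0.0635. For the adipocyte score r was -0.66 for *Oxct1* (permutation p = 0.0118, adjusted 0.047, rho -0.69), and -0.28 without LP 13 and LP 20, so that relation rested on these mice. For the other members r with the adipocyte score lay between -0.48 and 0.08 and rho between -0.50 and 0.11, with adjusted permutation p-values of at least 0.105 for r and at least 0.0703 for rho.

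With the atrial score as a covariate, some differences of *Oxct1* were larger and others smaller. The log2 fold change was then -0.47 (SE 0.12, unadjusted p = 0.000776, adjusted p = 0.156) in HF + LP against NP, -0.30 (SE 0.12, adjusted p = 0.230) in HF against NP, and -0.29 (SE 0.09, adjusted p = 0.066) for the fat main effect, while it was -0.19 in LP against NP and 0.01 for the interaction. With the adipocyte score added, the fat main effect on *Oxct1* was -0.36 (adjusted p = 0.0466). In the 10 libraries with Myl7 under 1000 (2 NP, 2 LP, 3 HF, and 3 HF + LP) it was -0.24 (adjusted p = 0.263), and the log2 fold change of *Oxct1* was -0.31 in HF + LP against NP and -0.23 in HF against NP, closer to 0 than over all mice. None of these values of *Oxct1* passed the threshold of 0.01. For *Bdh1* the log2 fold change in HF + LP against NP was -0.67 with the atrial score (adjusted p = 0.415) and -0.31 in the 10 libraries. In those 10 libraries *Bdh1* was 0.24 in HF against NP and 0.12 in LP against NP, the opposite sign of the values over all mice.

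**Figure D3:**
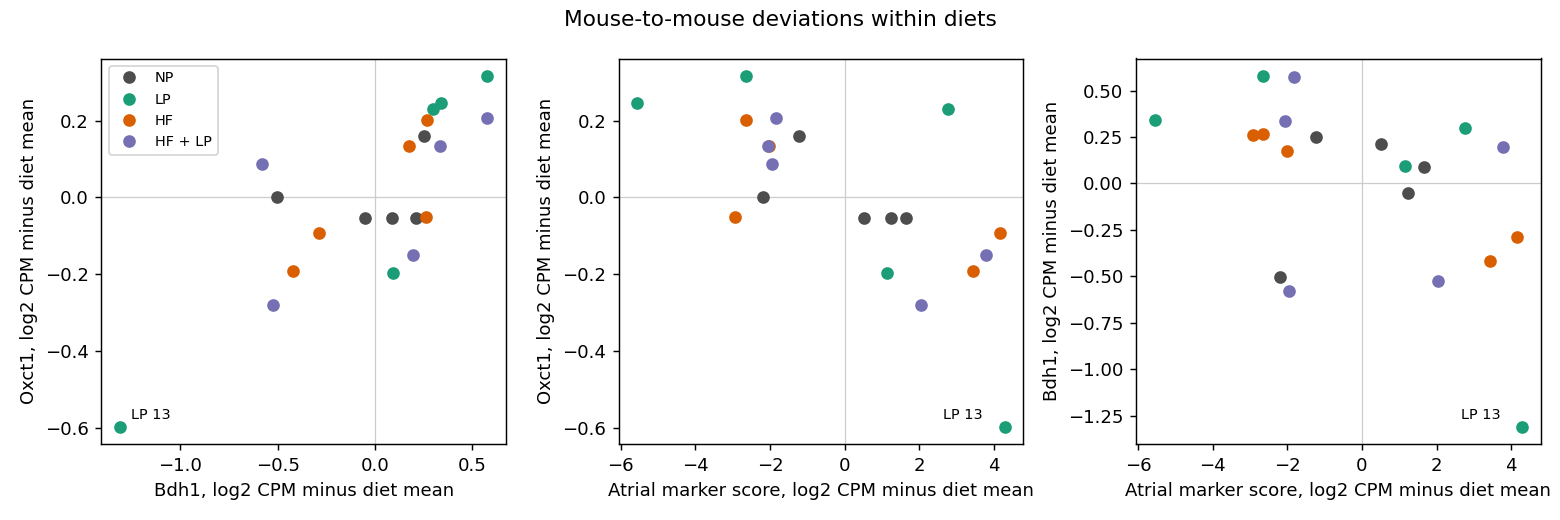
Each point is a mouse, colored by diet, as its log2 CPM or atrial score minus the mean of its diet. Oxct1 against Bdh1 (left) has an r of 0.78, Oxct1 against the atrial score (middle) -0.70, and Bdh1 against the atrial score (right) -0.49, with LP 13 at the far end in all 3 panels.

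Across all 20 libraries, diet differences included, the genes most like the members by Pearson's r of log2 CPM were taken among genes with a mean count over 50. They were *Mybpc3* (0.96), *Fastk* (0.89), and *Myh7b* (0.87) for *Oxct1*. For *Bdh1* they were *Cnksr1* (0.92) and *Ptgds* (0.90). For *Acat1* they were *Mettl9* (0.93), *Ube2a* (0.92), and *Mrps14* (0.91), and for *Slc16a1* *Kitl* (0.90), *Ttc32* (0.90), and *Ppp1r14c* (0.89). These values share the libraries and their composition and are a description.

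Of the other genes of ketone body synthesis and use, 3 are given here, and 0 of these 3 were called. *Bdh2* and *Aacs* averaged 15.0 and 22.1 counts, under the minimum of 50, and could not be called. The 3 genes are *Bdh2*, a cytosolic short-chain dehydrogenase, *Acat2*, the cytosolic thiolase, and *Aacs*, which activates acetoacetate for lipid synthesis. *Bdh2* had an unadjusted p of at least 0.156 in every pairwise comparison and main effect. *Aacs* and *Acat2* were at 12.3 to 147 and at 50.3 to 216 counts in LP, with their highest values in LP 13 and LP 20. Their log2 fold changes in LP against NP were 2.04 (SE 0.52, adjusted p = 0.387) for *Aacs* and 0.85 (SE 0.35, adjusted p = 0.635) for *Acat2*, and without LP 13 they were 0.92 and 0.39. In HF + LP against LP they were -1.85 (SE 0.51, unadjusted p = 0.00175, adjusted p = 0.107) for *Aacs* and -0.84 (SE 0.35, unadjusted p = 0.0249, adjusted p = 0.240) for *Acat2*, and -0.74 and -0.38 without LP 13. LP 13 and LP 20 also had the highest adipocyte scores, and the part of these cells in both differences was not tested. *Hmgcll1*, *Oxct2a*, *Oxct2b*, and *Acat3* were not listed.

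Of 11 genes of monocarboxylate transport given here beside *Slc16a1*, 0 were called in any comparison, but 6 of them averaged under 50 counts and could not be called. In HF + LP against LP 2 were higher and 2 lower at an unadjusted p under 0.05, as were 6.26% and 9.66% of the tested genes. In the other pairwise comparisons and effects 1 to 3 of the 11 passed that threshold in either direction, beside 4.84% to 20.8% of the tested genes. Without LP 13, 2 were higher and 1 lower in HF + LP against LP, as were 4.5% and 7.81% of the tested genes. Basigin (*Bsg*), the chaperone that carries MCT1 to the membrane, had 1452 to 5977 normalized counts in LP and 5692 to 7291 in HF + LP. The *Bsg* log2 fold change between them was 0.61 (SE 0.24, unadjusted p = 0.0172, adjusted p = 0.207), and its lowest mouse was LP 13, without which it was 0.39. *Mpc2*, a subunit of the mitochondrial pyruvate carrier, had 6642 to 8456 counts in LP, all below the NP mice at 8498 to 9576. Its log2 fold change in LP against NP was -0.24 (SE 0.09, adjusted p = 0.592), beside 0.343% of the tested genes that lay wholly lower in LP. *Slc16a7* (MCT2) and embigin (*Emb*) were at mean counts of 20.1 and 28.6, with LP 13 highest for *Slc16a7* and LP 20 for *Emb*, and had log2 fold changes of 0.75 and 1.52 in LP against NP (adjusted p = 0.609 and 0.582). *Slc16a13* had 0.67 in HF + LP against NP (SE 0.24, adjusted p = 0.377). The remaining carriers *Slc16a3*, *Slc16a6*, *Slc16a9*, *Slc16a10*, and *Slc16a12*, and *Mpc1*, had no unadjusted p under 0.05 in any comparison over all mice. Without LP 13 the log2 fold change of *Slc16a6* in LP against NP was 0.50 (SE 0.18, unadjusted p = 0.0112, adjusted p = 0.601).

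The list of other thiolases and acetyl-CoA transfer includes *Hadha*, which is not itself a thiolase. The 6 tested genes of the list (*Acaa1a*, *Acaa2*, *Hadha*, *Hadhb*, *Scp2*, and *Crat*) all had positive log2 fold changes in HF + LP against LP, and 0 of them were called. Their median was 0.41 beside -0.03 for all tested genes, and 6 of 6 had an unadjusted p under 0.05, as had 6.26% of the tested genes in that direction. LP 13 was the lowest LP mouse for *Acaa1a*, *Hadha*, *Hadhb*, and *Scp2*, and without it 3 of 6 had an unadjusted p under 0.05 (4.5% of the tested genes) with a median of 0.29. All 6 adipocyte markers were lower in this comparison at an unadjusted p under 0.05 (median -4.73), 5 of 5 atrial markers had negative log2 fold changes (median -1.64), and 7 of 9 ventricular cardiomyocyte markers had positive ones (median 0.13). The part of these markers was not tested. *Acaa2*, a thiolase of the last step of mitochondrial β-oxidation, had 9691 to 13334 normalized counts in LP and 12826 to 22539 in HF + LP, a log2 fold change of 0.61 (SE 0.14, adjusted p = 0.0548). *Scp2* had 0.55 (SE 0.14, adjusted p = 0.0828). In HF against NP the median of the 6 genes was -0.02. Of the 8 partners that supply or use succinyl-CoA and acetyl-CoA, 0 were called, and 2 (*Sucla2* and *Suclg1*) were higher in HF + LP against LP at an unadjusted p under 0.05, of which 1 (*Suclg1*) remained without LP 13. *Ogdh*, a subunit of the α-ketoglutarate dehydrogenase that makes succinyl-CoA, had 14837 to 17715 counts in NP and 10050.2 to 12407 in HF, a log2 fold change of -0.50 (SE 0.10, adjusted p = 0.0196), which missed the threshold. Of 3 lactate dehydrogenases and 7 tested regulators of the pathway, 0 were called. *Hdac3* was the 1 regulator with an unadjusted p under 0.05 in any comparison, at -0.29 (SE 0.13, adjusted p = 0.538) in HF + LP against NP, and *Ldhd* had -0.40 (SE 0.13, adjusted p = 0.147) in HF against NP. The single tested receptor, *Ffar2*, averaged 9.56 counts and could not be called.

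**Figure D4:**
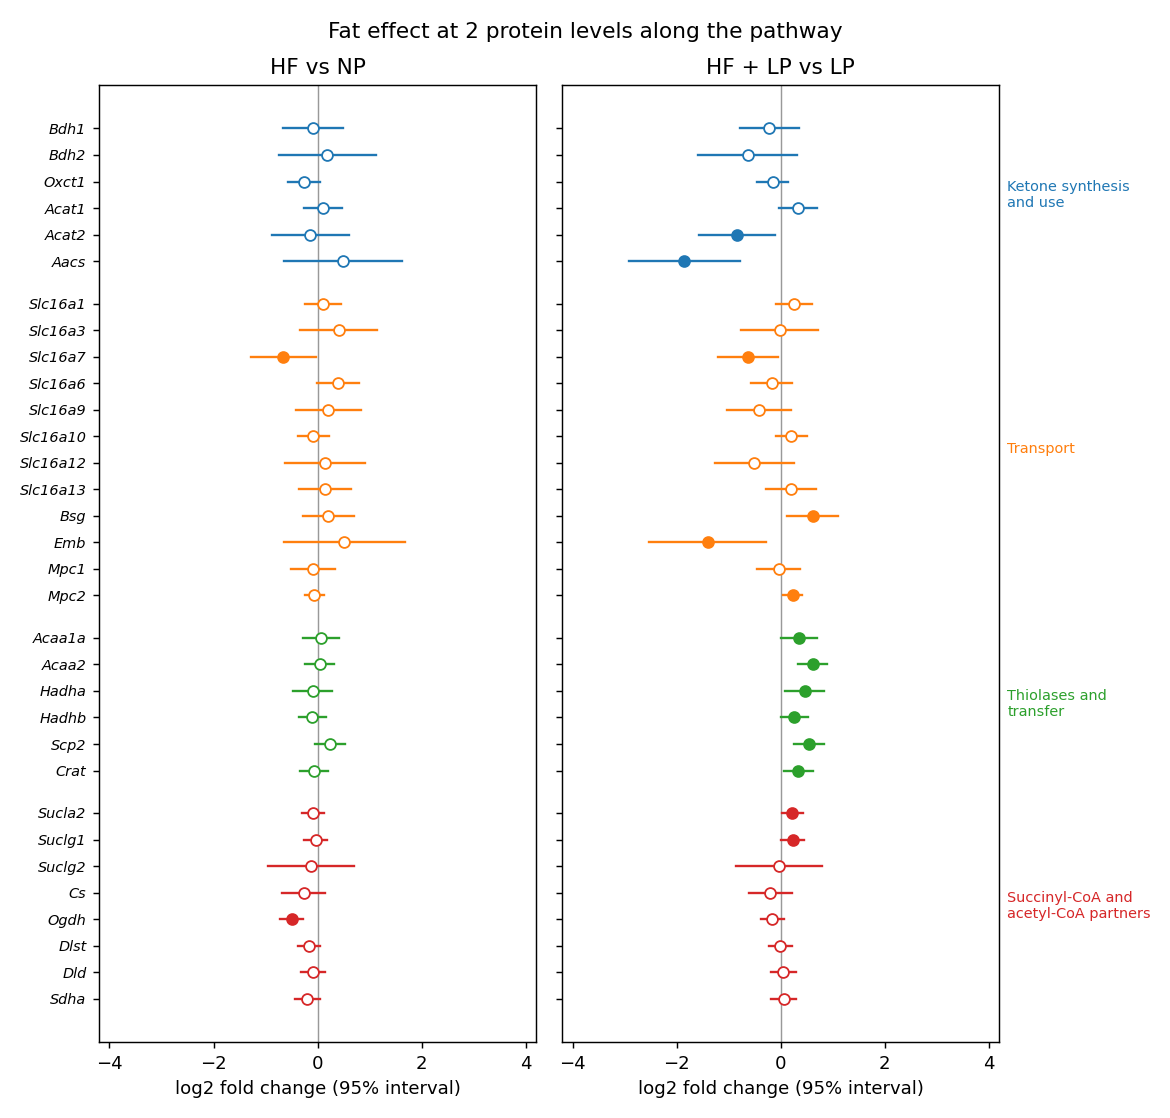
Log2 fold changes with 95% intervals (horizontal axes) of genes along the pathway (vertical axis, grouped by color) for the fat effect at normal protein (left) and at low protein (right), with filled circles for an unadjusted p under 0.05. The 4 members lie between -0.26 and 0.10 on the left, and the 6 genes listed under thiolases and acetyl-CoA transfer lie above 0 on the right.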

How the data were processed

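RNA was isolated from left ventricular tissue of 20 male mice, and QuantSeq 3′ mRNA libraries were primed with oligo(dT) and sequenced in 75-bp fragments on a NextSeq 500. Reads were aligned by the authors in BlueBee, and the deposited values are raw counts per Ensembl gene in each mouse. The submitters' processing notes name GRCm38 and DESeq2 1.22.2, and the counting program, annotation, and use of strand are not given in the sources used here. Raw counts of 15956 genes were listed, 15917 of them with a symbol, and no listed gene had fewer than 60 counts in all. Genes were filtered with filterByExpr, scaled by TMM, and fitted with the quasi-likelihood model of edgeR 4.0.16 (R 4.3.3) over all 20 libraries, with Benjamini-Hochberg adjustment over 13991 genes. Standard errors were derived from the F statistic. Log2 CPM used a prior count of 2. Correlations were tested with 100000 two-sided permutations within diets. Totals of 12559607 to 23331907 counts keep the counting error of the members small beside the spread between mice. Alternatives were DESeq2 1.42.0, other scalings, filters, and thresholds, blocks, covariates, and each mouse left out. Covariates and subsets based on marker genes were chosen after seeing the data.

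The members and gene lists were chosen with earlier results of these data known. Genes given with values of their own beside the members are tested genes of ketone synthesis, ketone use, and monocarboxylate transport, up to 3 genes with the smallest p from each other list, and up to 3 genes most like each member, while other genes of a list are only named and some genes of these groups are not reported here. Groups came from the sample titles. Transcript ends were compared with blastn 2.17.0. The scripts were tested on simulated data. Same-numbered mice of different diets are different animals, and the correlation of their deviations from the diet means lay between -0.55 and 0.48, so the numbers were not taken as pairs.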

Additional observations from a re-analysis of the deposited data

Results flagged for a closer look

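The values of 2 members lay far from the rest of their diet by Dixon's gap ratio on log2 CPM, which is tested here in 16 groups of 5 mice and marks about 1 in 20 groups by chance. *Bdh1* in LP 13 was the lowest of the LP mice, with a gap to the next mouse of 0.743 of the whole range (855 normalized counts against 2265 to 3170.3 in the others). LP 13 also had the highest atrial and adipocyte marker scores of all mice, and their part in this value was not tested. *Oxct1* in NP 6 was the highest of the NP mice, with a gap of 0.739 of the range (26409 normalized counts against 22751 to 23654 in the others).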

How the results depend on the processing

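The count of members called was 0 in all 243 recomputed comparisons, so no member call depended on a setting. Over all genes, the fat main effect had 140 calls, 389 with DESeq2, 502 at an adjusted p under 0.05, 94 with the library-name number as covariate, and 13 with the replicate block. HF against NP had 37 and then 158, 157, 31, and 2, and HF + LP against LP had 14 and then 81, 45, 5, and 0. Leaving out 1 mouse gave 79 to 198, 20 to 32, and 1 to 16 calls, 2 to 9 in HF + LP against NP (4 over all mice), and 33 to 101 for any diet difference (67 over all mice). Of 844 member log2 fold changes recomputed, 15 changed sign for *Slc16a1*, 6 for *Acat1*, 5 for *Bdh1*, and 4 for *Oxct1*, none of them called. With the animal number as replicate block, *Slc16a1* was 0.21 in LP against NP, -0.14 in HF + LP against LP, -0.035 for fat, 0.11 for protein, and -0.20 for the interaction, and the interaction was -0.029 for *Oxct1* and -0.0013 for *Acat1*, while *Acat1* was -0.023 in LP against NP (-0.27 without the block) and 0.19 in HF + LP against LP (0.33). The block changed no call of a member, and the diets compared share 1 to 5 numbers.

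With the atrial score, *Slc16a1* in HF + LP against HF was -0.035, and with both scores -0.037, with the *Oxct1* interaction at -0.011. In the libraries with Myl7 under 1000, *Bdh1* was 0.24 in HF against NP and 0.12 in LP against NP, the *Oxct1* interaction -0.037, and *Slc16a1* 0.13 in LP against NP, -0.048 in HF + LP against LP, -0.0027 for fat, 0.087 for protein, and -0.091 for the interaction.

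With 1 mouse left out, log2 fold changes that changed sign ranged from -0.20 to 0.00050 (*Bdh1*, HF against NP), -0.018 to 0.21 (*Acat1*, HF against NP), -0.16 to 0.077 (*Acat1*, HF + LP against HF), -0.017 to 0.13 (*Acat1*, HF + LP against NP), -0.096 to 0.083 (*Slc16a1*, HF + LP against HF), -0.34 to 0.017 (*Bdh1* interaction), and -0.025 to 0.18 (*Oxct1* interaction). Within diets, r of *Bdh1* and *Oxct1* ranged from 0.56 to 0.86 and no longer passed without LP 13 or LP 20, and r changed sign for *Acat1* with weight (-0.0038 to 0.22), *Bdh1* (-0.037 to 0.15), *Oxct1* (-0.21 to 0.0059), the atrial score (-0.30 to 0.021), and the adipocyte score (-0.0997 to 0.16). The causes were not tested. The smallest raw count of a member was 889, and the part of depth was not tested. *Aacs*, *Emb*, and *Slc16a7*, at mean counts under 30, are less precise.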
